A study of Caenorhabditis elegans with 48 samples.

Results

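The genes described here are the heat shock transcription factor gene hsf-1 and 8 genes of the cytosolic chaperone machinery of Caenorhabditis elegans, followed while newly hatched L1 larvae were held in developmental arrest by starvation (L1 arrest). They were chosen by gene identity, though with earlier results of these data known: hsf-1 (Y53C10A.12), hsp-1 (F26D10.3), hsp-90 (C47E8.5, also named daf-21), hsp-70 (C12C8.1), F44E5.4, F44E5.5, hsp-110 (C30C11.4), sti-1 (R09E12.3) and dnj-13 (F54D5.8). These are 9 of the 44968 genes counted, and all 9 passed the filter of more than 1 CPM (a gene's reads scaled to a common library size) in at least 4 libraries that left 16987 genes to test.

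Whole animals of the wild-type strain N2 were collected for mRNA-seq at 12 time points: every 2 or 3 h from -2 h to 12 h, with 0 h set at the nominal hatch, and then at 24, 48, 96, 192 and 288 h. Embryos obtained by hypochlorite treatment were held in the buffer S-basal without food, so the larvae hatched into starvation. No treatment, mutant or fed group was among the 48 libraries of this time series. There were 4 biological replicates at each time point, numbered 1, 5, 6 and 8 and giving 48 libraries, and per the study's methods all but one replicate came from a single culture sampled over time. Because hatching continued after 0 h, the first time points mix embryos with larvae. Per the paper, some larvae had died by 192 h and most by 288 h. The samples of these late time points therefore mix living with dead or dying larvae.

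Libraries held 10164115 to 15962842 counts in genes (median 12449157). Ribosomal RNA genes took 49.5% of these in the -2 h library of replicate 6 and 29.2% in the 24 h library of replicate 8, against at most 9.89% in the others. Levels are given as CPM on library totals scaled by TMM (trimmed mean of M values), which places each gene relative to the bulk of the other genes and not as transcripts per larva. In whole animals, a gain or loss of cells of a type and a change in RNA per cell cannot be told apart.

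HSF-1 is the conserved transcription factor that binds heat shock elements and drives chaperone genes when unfolded proteins accumulate, and it also acts in development and lifespan of C. elegans without heat. Hsp70 proteins bind unfolded stretches of client proteins in cycles driven by ATP. J-domain proteins deliver clients and stimulate the ATPase, and Hsp110 proteins act as nucleotide exchange factors that release ADP. Hsp90 takes over clients such as kinases and receptors, and the co-chaperone Hop, encoded by sti-1, can bind Hsp70 and Hsp90. Of the Hsp70 genes here, hsp-1 encodes the constitutive Hsc70, whereas hsp-70, F44E5.4 and F44E5.5 are heat-inducible.

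All 9 genes changed over the 12 time points by the edgeR likelihood ratio test, where 84.9% of all tested genes did. In the edgeR quasi-likelihood test of the same question, the false discovery rate (FDR, Benjamini-Hochberg) ran from 1.53e-35 for hsp-90 to 1.03e-10 for sti-1. Every one of the 9 had its highest mean at 288 h, and its lowest between 2 and 9 h. The ratio of highest to lowest mean was 77.3 for F44E5.4, with F44E5.5 close to it, 15.5 for hsp-70, 10.2 for hsp-1 and 8.56 for hsp-110. hsp-90 went from 813 to 10594 mean CPM. The ratio was smaller for dnj-13 (3.62), hsf-1 (3.20) and sti-1 (2.19). The peak at 288 h held in all 4 replicates for hsf-1, hsp-1, F44E5.4, F44E5.5 and hsp-110, in 3 for hsp-90, hsp-70 and dnj-13, and in 2 for sti-1.

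The summed level of the 9 genes was 1905 CPM (SD 144.5, n = 4) at 0 h, against 1486 CPM by 4 h (SD 127, n = 4). Its mean was 3434 CPM by 24 h (SD 289.7, n = 4), 9302 CPM by 96 h (SD 922, n = 4) and 17596 CPM by 288 h (SD 3514, n = 4). Most of this RNA was hsp-90 and hsp-1, which together made up 79.9% of the sum at -2 h, 93.9% at 96 h and 83.9% at 288 h. The share of hsp-90 alone went from 47.0% at 0 h to 71.9% at 96 h.

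**Figure D1:**
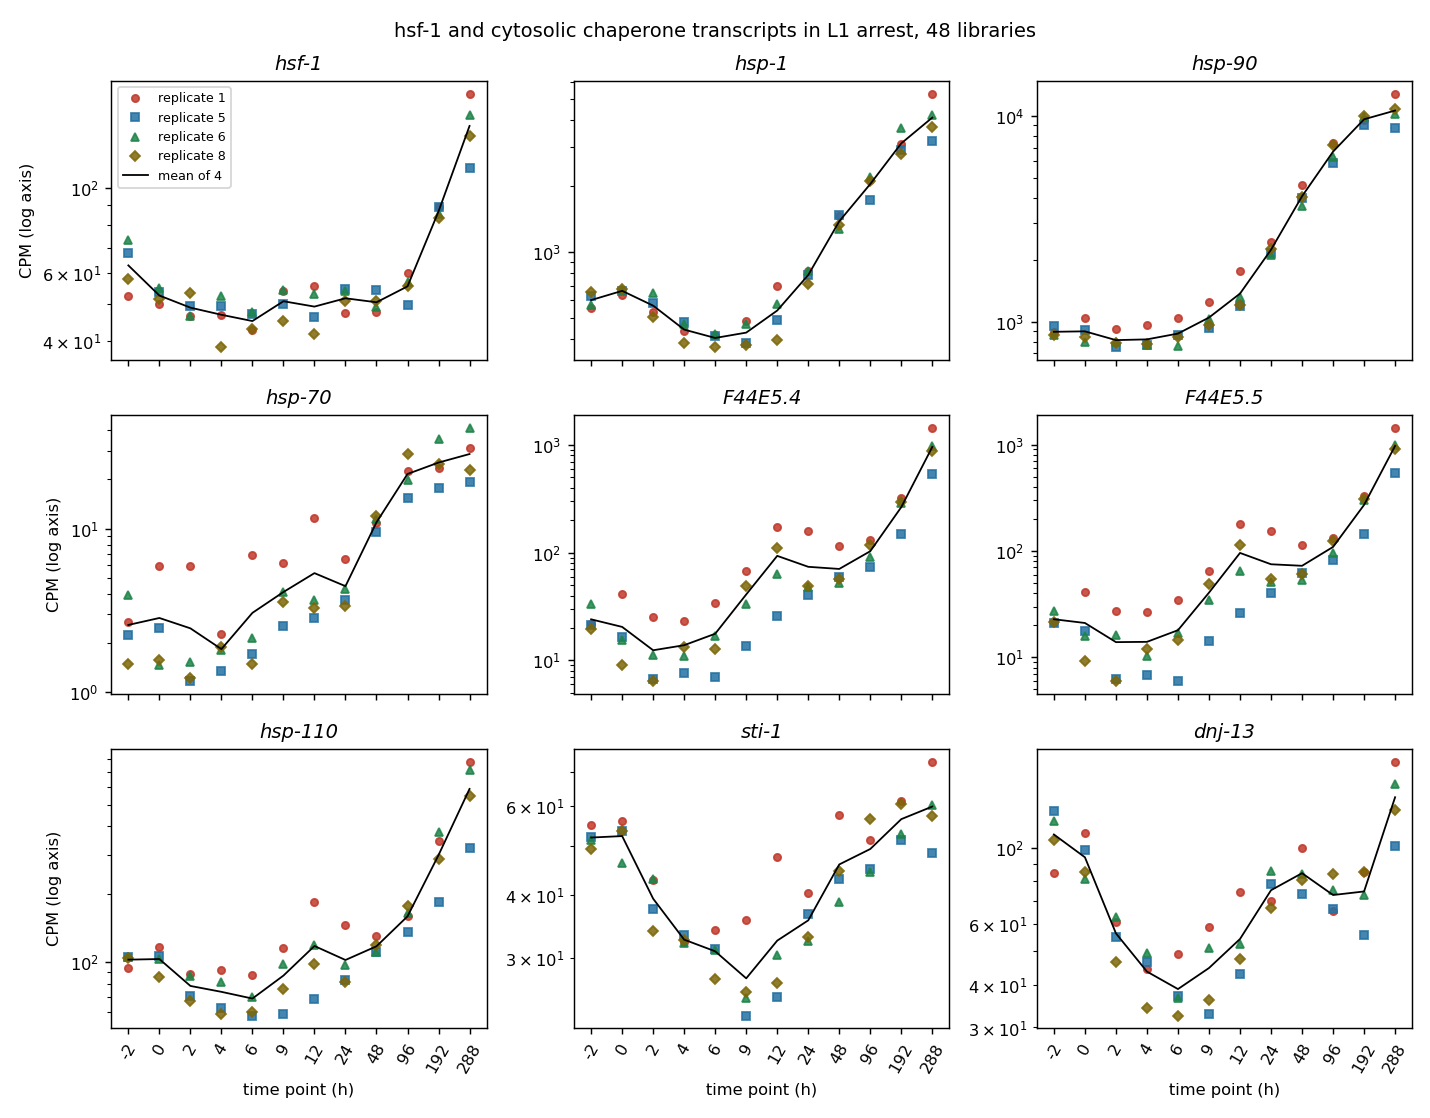
CPM (log axis) of each of the 9 genes in all 48 libraries against time point (h, evenly spaced), with 1 symbol per replicate and a line through the mean of 4. Means are highest at 288 h in every panel, and replicate 1 lies above the other replicates of F44E5.4 at 11 of 12 time points.

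Between -2 and 0 h, when larvae begin to hatch, 0 of the 9 genes passed the edgeR quasi-likelihood test, against 23.8% of all tested genes (11.5% higher, 12.3% lower). At an unadjusted p under 0.05 there was 1, hsf-1, and DESeq2 also called hsf-1 alone (FDR 0.0335, with 0.0335 to 0.694 over all alternatives). hsf-1 was at 52.5, 67.7, 73.4 and 58.1 CPM in replicates 1, 5, 6 and 8 at -2 h and at 50.1, 53.7, 55.0 and 51.5 CPM at 0 h. It was lower at 0 h in all 4 replicates, but the groups overlapped and the log2 difference of -0.26 (SE 0.11) had an edgeR FDR of 0.0762. The log2 fold changes of the other 8 lay between -0.22 for F44E5.4 and dnj-13 and 0.18 for hsp-70. The median of the 9 was 0.01, beside 0.03 over all tested genes.

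Over the first 12 h after hatching, 5 of the 9 genes changed, 3 up and 2 down. Of all tested genes, 45.4% passed this test, 22.2% higher and 23.3% lower. The heat-inducible pair F44E5.4 and F44E5.5 and hsp-90 rose, whereas the co-chaperone genes sti-1 and dnj-13 fell. From 12 to 24 h only hsp-90 and hsp-1 passed, both higher, where 9.55% of all genes passed, 4.26% higher and 5.3% lower.

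The mean of hsf-1 from 0 to 96 h lay between 45.1 CPM (6 h, SD 2.57, n = 4) and 55.5 CPM (96 h, SD 4.40), and neither 12 h against 0 h (log2 fold change -0.10, SE 0.11, FDR 0.508) nor 24 h against 12 h (0.07, SE 0.11, FDR 0.768) passed the edgeR test. The sign of the latter value turned without scaling factors.

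hsp-90, the gene for the cytosolic Hsp90, was the most abundant of the 9 throughout. At 0 h its libraries held 1045, 911, 792 and 839 CPM in replicates 1, 5, 6 and 8, at 12 h 1763, 1187, 1314 and 1205 CPM, and at 24 h 2431, 2143, 2102 and 2260 CPM. Every library at 12 h exceeded every library at 0 h, and every library at 24 h exceeded every library at 12 h. The log2 fold change was 0.61 (SE 0.12, edgeR FDR 4.14e-05) at 12 h against 0 h and 0.71 (SE 0.12, edgeR FDR 5.57e-05) at 24 h against 12 h. C47E8.4, which overlaps hsp-90 on the opposite strand, stayed between 9.74 and 14.2 mean CPM.

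hsp-1 encodes the constitutive Hsc70 and had its lowest mean at 6 h. It was at 635, 664, 671 and 679 CPM in replicates 1, 5, 6 and 8 at 0 h, at 415, 411, 421 and 365 CPM at 6 h, and at 816, 780, 819 and 715 CPM at 24 h. At 12 h the replicates spread from 395 to 695 CPM and overlapped those at 0 h (log2 fold change -0.30, SE 0.13, edgeR FDR 0.0512). With the replicate number as a block, hsp-1 was lower at an FDR of 0.0172, and its FDR ran from 0.00581 to 0.387 over the alternatives. The following rise to 24 h was 0.54 (SE 0.13, edgeR FDR 0.00322) on the log2 scale, with no overlap between the groups, but it did not pass without scaling factors (FDR 0.178, with 0.000216 to 0.178 over the alternatives).

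F44E5.4 and F44E5.5 encode near-identical Hsp70 proteins from neighbouring genes on opposite strands. Reads with 2 locations could be placed at either copy, so the pair is best read as 1 measurement: F44E5.4 held 49.6% of the pair's counts over all libraries and 41.2 to 55.1% in single libraries. F44E5.4 was at 41.1, 16.3, 15.4 and 9.08 CPM in replicates 1, 5, 6 and 8 at 0 h and at 174, 25.97, 63.1 and 110.4 CPM at 12 h. It rose in all 4 replicates, from 1.59-fold in replicate 5 to 12.2-fold in replicate 8, although the lowest library at 12 h lay below the highest at 0 h. The log2 fold change was 2.20 (SE 0.51, edgeR FDR 0.000375), and that of F44E5.5 was 2.19 (SE 0.51, edgeR FDR 0.00043). At 24 h F44E5.4 was at 158, 40.9, 48.1 and 49.1 CPM, lower than at 12 h in 3 of 4 replicates, and the difference did not pass (log2 fold change -0.34, SE 0.48, edgeR FDR 0.752).

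Replicate 1 was often the highest library, though not for every gene. It was highest at 11 of 12 time points for F44E5.4 and F44E5.5, at 10 for hsp-90, at 9 for hsp-110 and sti-1, at 7 for hsp-70 and at 6 for dnj-13, but at 3 for hsf-1 and hsp-1. Replicate 5 was lowest at 8 time points for F44E5.4 and hsp-70. Without replicate 1, the rises of F44E5.4, F44E5.5 and hsp-90 from 0 to 12 h still passed, and 7 of the 9 genes passed in place of 5. The added calls were a rise of hsp-70 (FDR 0.0425) and a fall of hsp-1 (FDR 0.00581). From 12 to 24 h, dnj-13 was added as a rise without replicate 1 (FDR 0.00745).

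hsp-70 was scarce in early arrest. Its libraries held 5.89, 2.46, 1.46 and 1.58 CPM in replicates 1, 5, 6 and 8 at 0 h and 11.6, 2.85, 3.67 and 3.28 CPM at 12 h. It was higher at 12 h in 4 of 4 replicates, but the groups overlapped and the edgeR FDR was 0.0893 (log2 fold change 0.93, SE 0.45), or 0.0283 with the replicate block and up to 0.217 over the alternatives. hsp-70 overlaps uggt-2, a gene for a glucosyltransferase-like protein of the endoplasmic reticulum, on the opposite strand. uggt-2 was at 2.52 mean CPM at 0 h and 19.8 mean CPM at 288 h, close to the level of hsp-70. The library kit does not mark strand, so reads in the shared stretch cannot be told apart.

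**Figure D2:**
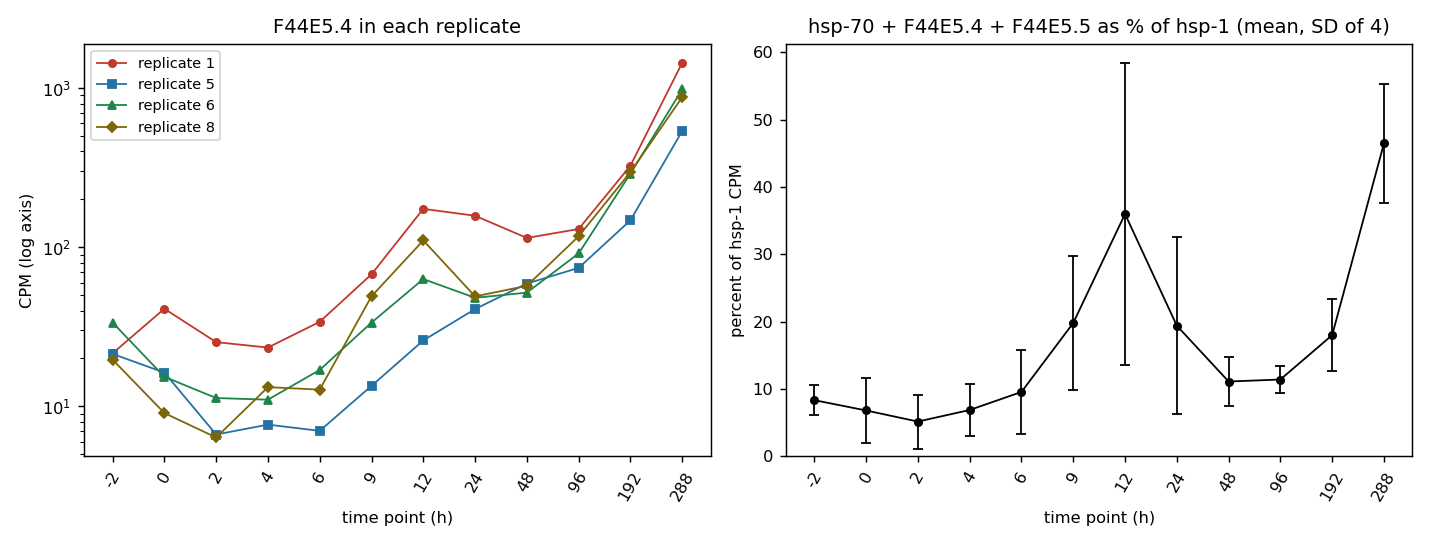
Left, CPM of F44E5.4 (log axis) in each of the 4 replicates against time point (h). Right, summed CPM of hsp-70, F44E5.4 and F44E5.5 as a percent of hsp-1 CPM, mean with SD of 4 replicates, which is 36.0% at 12 h, 11.1% at 48 h and 46.5% at 288 h.

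Set against the constitutive Hsc70, the 3 heat-inducible Hsp70 genes summed to 5.15% of hsp-1 at 2 h (SD 4.02, n = 4) and to 36.0% by 12 h (SD 22.4). The share was 11.1% by 48 h (SD 3.61) and 46.5% by 288 h (SD 8.82). The replicates at 288 h had shares of 34.1 to 55.1%, which lay within the range at 12 h, where the highest was 57.3%. The share therefore did not separate these 2 time points. The summed level itself ran from 55.1 to 365 CPM over the replicates at 12 h and from 1101 to 2912 CPM at 288 h. In this summed level the groups did not overlap.

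Both co-chaperone genes that passed between 0 and 12 h fell. dnj-13, a J-domain protein gene of the DNAJB type, was at 111, 98.5, 81.0 and 85.3 CPM in replicates 1, 5, 6 and 8 at 0 h and at 74.3, 42.9, 52.5 and 47.5 CPM at 12 h, with no overlap (log2 fold change -0.79, SE 0.18, edgeR FDR 0.000232). Its lowest mean was 38.8 CPM (SD 7.19, n = 4) at 6 h. From 12 to 24 h it was higher in 3 of 4 replicates (log2 fold change 0.47, SE 0.18, edgeR FDR 0.0877), and with the replicate block this passed at an FDR of 0.0217 (0.00745 to 0.386 over the alternatives). The overlapping gene dhgd-1 on the opposite strand stayed between 29.5 and 46.5 mean CPM.

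sti-1 was at 56.1, 53.5, 46.3 and 53.6 CPM in replicates 1, 5, 6 and 8 at 0 h and at 47.7, 25.1, 30.3 and 26.8 CPM at 12 h. It was lower in all 4 replicates, and only replicate 1 at 12 h reached the range of 0 h (log2 fold change -0.69, SE 0.14, edgeR FDR 8.86e-05). hsp-110, the gene for the Hsp110 exchange factor, had 117.5 mean CPM at 12 h and 102.8 mean CPM at 0 h (log2 fold change 0.19, SE 0.23, edgeR FDR 0.532), with 185 CPM in replicate 1 and 68.3 CPM in replicate 5 at 12 h. Its value turned negative without replicate 1. From 12 to 24 h, hsp-110 (log2 fold change -0.21, FDR 0.67), sti-1 (0.13, FDR 0.66) and hsp-70 (-0.27, FDR 0.793) did not pass the edgeR test, nor did F44E5.5 (-0.36, FDR 0.741).

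**Figure D3:**
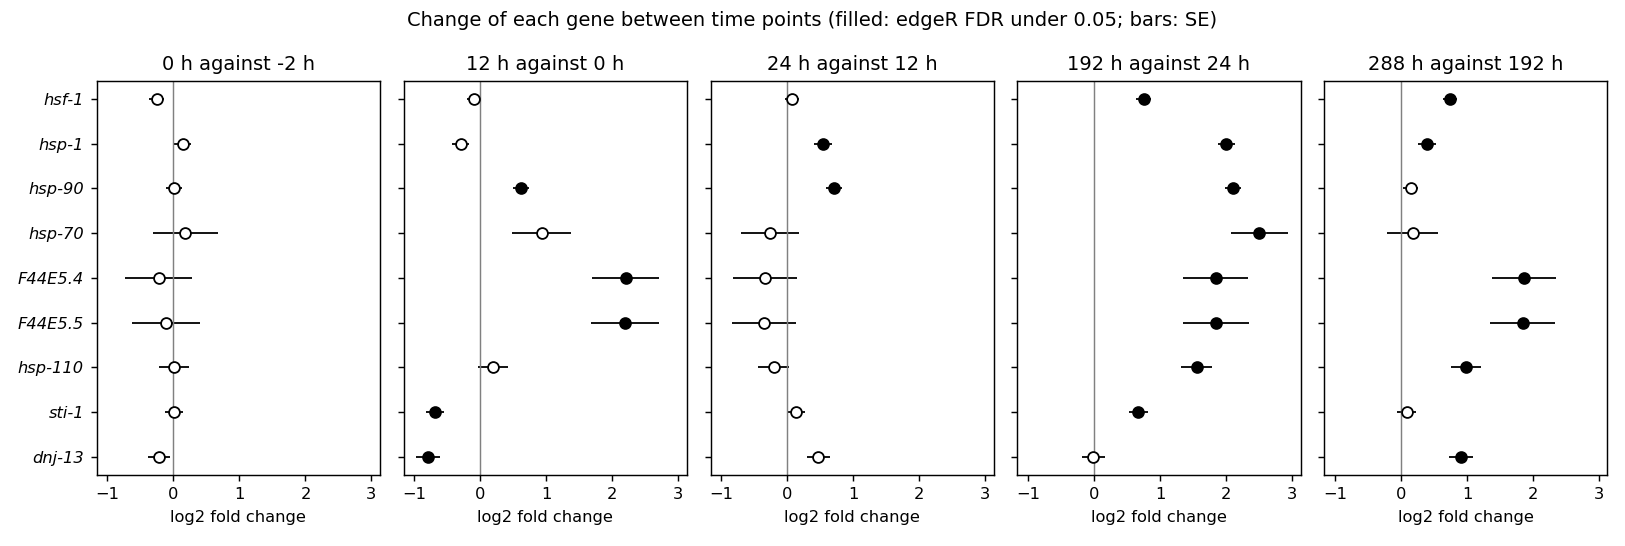
Log2 fold change (x axis) of each of the 9 genes in the 5 comparisons of time points, with its standard error. Filled points passed an edgeR FDR of 0.05: 0, 5, 2, 8 and 6 of 9 from left to right.

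From 24 to 192 h, 8 of the 9 genes rose and none fell, where 39.7% of all tested genes passed, 19.4% higher and 20.3% lower. With F44E5.4 and F44E5.5 summed as 1 gene, 7 of 8 rose. The median log2 fold change of the 9 was 1.84, beside -0.05 over all tested genes. hsp-90 reached 9525, 9021, 9883 and 10001 CPM in replicates 1, 5, 6 and 8 at 192 h (log2 fold change 2.10, SE 0.12, edgeR FDR 4.37e-18). hsp-1 reached 3111, 2911, 3697 and 2811 CPM (log2 fold change 2.00, SE 0.13, edgeR FDR 1.07e-16). For both genes the 192 h libraries all lay above the 24 h libraries. Means between these times were not tested: by 48 h hsp-90 averaged 4063 CPM (SD 407) and hsp-1 1378 CPM (SD 97.5), and by 96 h they averaged 6690 CPM (SD 691) and 2041 CPM (SD 216).

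The inducible genes rose over the same span. hsp-70 went from 6.51, 3.68, 4.25 and 3.38 CPM in replicates 1, 5, 6 and 8 at 24 h to 23.5, 17.8, 35.3 and 24.8 CPM at 192 h (log2 fold change 2.50, SE 0.43, edgeR FDR 6.15e-06). F44E5.4 reached 325, 148, 290 and 297 CPM (log2 fold change 1.84, SE 0.49, edgeR FDR 0.00214), with replicate 5 at 192 h below replicate 1 at 24 h. F44E5.5 rose by 1.85 on the log2 scale (SE 0.50, edgeR FDR 0.00222). hsp-110 rose to 343, 184, 378 and 288 CPM, all above the highest library at 24 h (log2 fold change 1.55, SE 0.23, edgeR FDR 4.84e-07).

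hsf-1 and sti-1 rose less. hsf-1 was at 47.4 to 54.6 CPM at 24 h and 89.1, 89.1, 85.6 and 83.7 CPM in replicates 1, 5, 6 and 8 at 192 h (log2 fold change 0.75, SE 0.11, edgeR FDR 1.7e-07). sti-1 rose by 0.67 on the log2 scale (SE 0.14, edgeR FDR 0.000182) and reached 56.6 mean CPM, close to its 52.3 mean CPM at 0 h. dnj-13 was at 75.3 CPM at 24 h (SD 8.52, n = 4) and at 74.7 CPM by 192 h (SD 13.8), with 2 replicates higher and 2 lower (log2 fold change -0.01, SE 0.18, edgeR FDR 0.968).

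In the last span, 192 to 288 h, the genes that rose were hsf-1, hsp-1, F44E5.4, F44E5.5, hsp-110 and dnj-13, 6 of 9, where 24.7% of all tested genes passed, 7.38% higher and 17.4% lower. With F44E5.4 and F44E5.5 summed as 1 gene, 5 of 8 rose. F44E5.4 increased in every replicate, by 2.96-fold to 4.43-fold, to 1443, 537, 981 and 877 CPM in replicates 1, 5, 6 and 8 (log2 fold change 1.86, SE 0.49, edgeR FDR 0.00299). F44E5.5 rose by 1.84 on the log2 scale (SE 0.49, edgeR FDR 0.00355). hsp-110 reached 774, 321, 711 and 544 CPM (log2 fold change 0.98, SE 0.23, edgeR FDR 0.000926), with replicate 5 inside the range of 192 h.

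hsf-1 reached 175, 113, 155 and 136 CPM in replicates 1, 5, 6 and 8 at 288 h, all above 192 h (log2 fold change 0.74, SE 0.11, edgeR FDR 4.1e-07). dnj-13 reached 178, 102, 154 and 129 CPM, also without overlap (log2 fold change 0.91, SE 0.18, edgeR FDR 7.14e-05). hsp-1 was higher in 4 of 4 replicates (log2 fold change 0.39, SE 0.13, edgeR FDR 0.0183), but the groups overlapped and without replicate 1 the FDR was 0.217 (0.000264 to 0.217 over the alternatives). hsp-90, at 12789, 8724, 10140 and 10721 CPM, did not pass against 192 h (log2 fold change 0.14, SE 0.12, edgeR FDR 0.44). It passed under 1 of 14 alternatives, the filter at a mean of 10 CPM (0.27, FDR 0.0498), and its FDR ran up to 0.848 under the others. hsp-70 (0.17, SE 0.39, edgeR FDR 0.795) and sti-1 (0.08, SE 0.14, edgeR FDR 0.725) did not pass in this span, nor under any alternative that tested them.

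The muscle and intestine markers chosen here fell over these late spans, and the part of any tissue marker in the chaperone values was not tested. For genes expressed in muscle as a group, the paper reports a tendency to peak late in arrest. The few muscle markers here do not stand for that group. The 4 body wall muscle markers unc-54, myo-3, unc-15 and lev-11 summed to 13640 to 15248 CPM at 24 h, 2158 to 4170 CPM at 192 h and 544 to 821 CPM at 288 h, and 4 of 4 fell in each of the late comparisons. The 4 intestine markers elt-2, ges-1, act-5 and ifb-2 summed to 2444 to 2714 CPM, 851 to 1064 CPM and 284 to 423 CPM, with 4 and then 3 of 4 lower. The 4 neuron markers rab-3, snb-1, unc-64 and unc-104 summed to 652 to 758 CPM, 741 to 923 CPM and 614 to 866 CPM. Of these, unc-104 rose from 24 to 192 h (log2 fold change 0.58, edgeR FDR 9.57e-06), and DESeq2 called 2 of the 4 higher. From 192 to 288 h edgeR and DESeq2 called 0 of the 4, and 1 had an unadjusted p under 0.05 in edgeR. Of 3 germ cell markers, glh-1 and nos-2 fell from 24 to 192 h. nos-2 was scarce, with 1.06 mean CPM at 24 h and 0.209 mean CPM at 192 h. pgl-1 did not pass from 24 to 192 h (log2 fold change -0.38, edgeR FDR 0.078), and edgeR called 0 of the 3 from 192 to 288 h. For germline-enriched genes as a group, the paper reports a relative rise late in arrest. The germ cell markers here are too few to stand for that group. The epidermis markers lin-26 and dpy-7 passed in neither late comparison by edgeR or DESeq2, with 0 at an unadjusted p under 0.05. The adult yolk genes vit-2 and vit-6 were scarce, with a mean sum of 3.57 CPM at 24 h and 11.2 CPM at 192 h. vit-6 rose from 24 to 192 h (log2 fold change 2.05, edgeR FDR 0.0001), and both rose from 192 to 288 h.

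Per kb of exon, the order at 0 h was hsp-90 (380.1 CPM per kb, SD 46.7), hsp-1 (319 CPM per kb, SD 9.15), dnj-13, sti-1, hsp-110, hsf-1, the F44E5.5 and F44E5.4 pair and hsp-70 (1.38 CPM per kb, SD 1.01). The ranges of sti-1 and hsp-110 overlapped, as did those of the pair. At 288 h it was hsp-90 (4491 CPM per kb), hsp-1 (1982.5 CPM per kb), the pair (464.8 and 457.9 CPM per kb), hsp-110 (217 CPM per kb), dnj-13, hsf-1, sti-1 and hsp-70 (13.9 CPM per kb). There the pair, hsp-110 and dnj-13 formed a chain of overlapping neighbours, and hsf-1 overlapped sti-1.

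The profiles of the 9 genes over the 12 time-point means were compared as a description. The Pearson r of log2 CPM had a median of 0.839 over the 36 pairs and was lowest for hsp-70 with dnj-13 (0.493). hsp-90 was closest to hsp-70 (0.986) and hsp-1 (0.967), hsf-1 to hsp-110 (0.951), and sti-1 to dnj-13 (0.874). F44E5.4 and F44E5.5, whose reads could be placed at either copy, reached 1.0. Among all genes with a symbol and a mean of at least 10 CPM, hsp-90 was most like egl-45, a translation initiation factor subunit (0.996), car-1, an RNA-binding protein (0.995), and cct-5, a chaperonin subunit (0.994). hsf-1 was most like adm-2 (0.987), hid-1 (0.984) and magi-1 (0.983), and hsp-1 like chp-1 (0.987), unc-82 (0.987) and acl-12 (0.987). F44E5.4 was most like the small heat shock genes hsp-16.48 (0.994), hsp-16.49 (0.992) and hsp-16.1 (0.991). These rankings used 0.5 added to CPM and depended on it. With 5 added, F44E5.4 was most like hsp-16.1 (0.992), cit-1.2 (0.9903) and hsp-16.11 (0.988), stam-1 (0.983) took the third place for hsf-1, and acl-12 (0.988) the first for hsp-1, while the 3 genes of hsp-90 and their order stayed. All these points share the same 48 libraries.

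Other chaperone genes were read from lists by function. Their rises and falls are to be set against the shares of all tested genes that passed in the same direction. Between hatch and 12 h 22.2% were higher and 23.3% lower, and in the next 12 h 4.26% and 5.3%. Between 24 and 192 h 19.4% were higher and 20.3% lower, and in the last span 7.38% and 17.4%. In either direction the shares were 45.4%, 9.55%, 39.7% and 24.7%. The 8 subunit genes of TRiC/CCT, the cytosolic chaperonin that folds actin and tubulin, mostly rose until 192 h: 6 rose and cct-8 fell from 0 to 12 h, 7 rose from 12 to 24 h and 8 of 8 rose from 24 to 192 h. In the last of these, cct-4 (log2 fold change 1.17, edgeR FDR 2.7e-15) and cct-6 (1.12, edgeR FDR 5.67e-15) rose most, and the list's median was 0.98, beside -0.05 over all tested genes. Their sum was 2134 CPM at 0 h, 3643 CPM at 24 h and 6994 CPM at 192 h. Over the last span 5 of 8 fell, with cct-1 (-0.60, edgeR FDR 1.62e-07) and cct-3 (-0.36, edgeR FDR 0.000219) the largest falls. Without scaling factors, 1, 1, 6 and 0 of 8 rose in these 4 comparisons and 1, 1, 0 and 1 fell.

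The 6 hsp-16 genes, small heat shock proteins that hold unfolded clients, summed to 14.2 mean CPM at 0 h and 564 mean CPM at 288 h. From 0 to 12 h 5 of 6 rose, led by hsp-16.1 (log2 fold change 2.96, edgeR FDR 7.58e-06) and hsp-16.11 (2.65, edgeR FDR 3.48e-05), and from 12 to 24 h edgeR called 0 of 6, as did an unadjusted p under 0.05 and DESeq2. From 24 to 192 h 6 of 6 rose, led by hsp-16.41 (3.81, edgeR FDR 6.73e-09) and hsp-16.2 (3.57, edgeR FDR 1.46e-07). In the last span edgeR called 4 of 6 higher, led by hsp-16.49 (1.45, edgeR FDR 0.0265) and hsp-16.48 (1.43, edgeR FDR 0.0259), whereas DESeq2 called 1. Several hsp-16 genes are near-identical copies, so single values are uncertain.

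**Figure D4:**
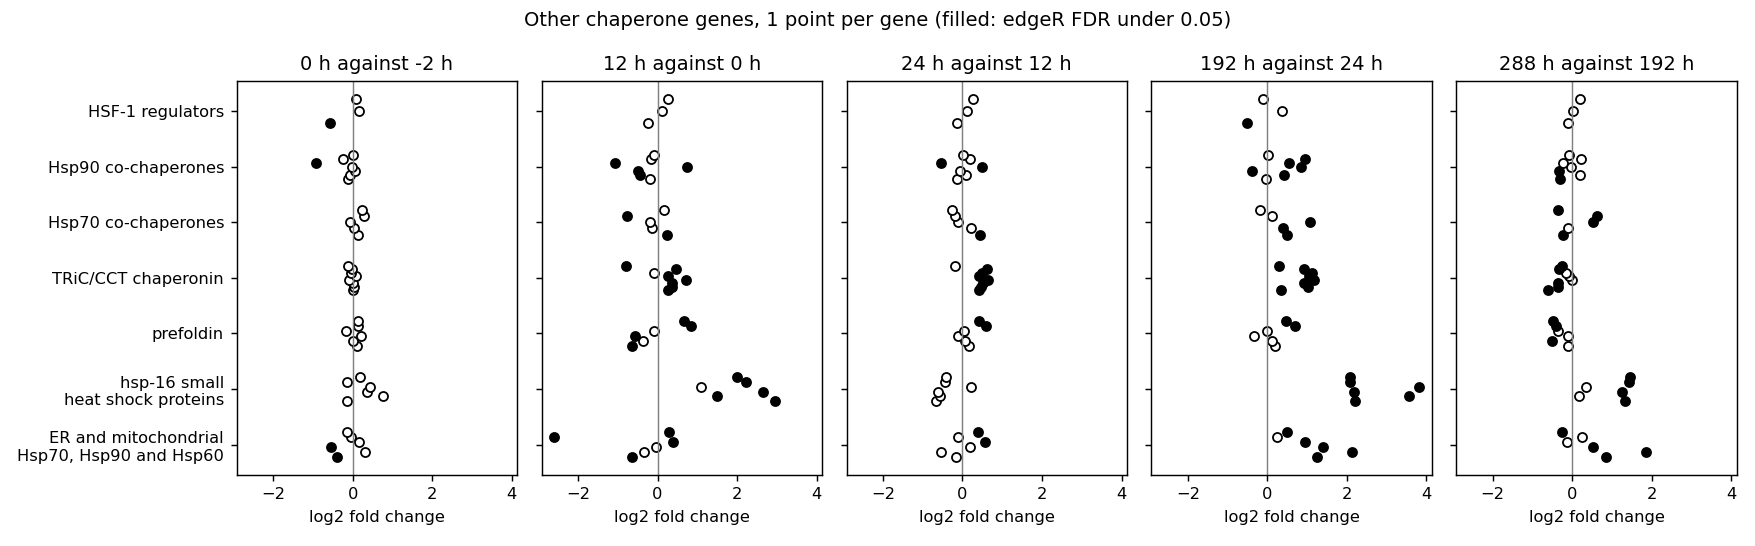
Log2 fold change (x axis) of single genes in 7 lists of chaperone and co-chaperone genes across the 5 comparisons, with filled points at an edgeR FDR under 0.05. All 8 TRiC/CCT and all 6 hsp-16 genes rose from 24 to 192 h, and 5 TRiC/CCT genes fell from 192 to 288 h.

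Among 7 genes for Hsp90 co-chaperones, 1 rose and 3 fell from 0 to 12 h, close to the 45.4% of all genes. ahsa-1, the ATPase activator Aha1, rose (log2 fold change 0.74, edgeR FDR 2.85e-08), and unc-45, the myosin chaperone, fell most (-1.07, edgeR FDR 4.53e-08), followed by pph-5 (-0.50, edgeR FDR 0.000586). From 24 to 192 h, 4 of 7 rose, led by fkb-6 (0.94, edgeR FDR 1.12e-05) and ahsa-1 (0.84, edgeR FDR 1.71e-09), and pph-5 fell. Over the last span pph-5 (-0.33, edgeR FDR 0.0485) and cdc-37 (-0.30, edgeR FDR 0.0196) fell, 2 of 7, where 17.4% of all tested genes were lower. Without scaling factors neither fell. Of 5 Hsp70 co-chaperone genes, 3 rose from 24 to 192 h, led by bag-1 (1.06, edgeR FDR 2.91e-05). Over the last span 2 rose, unc-23 (0.61, edgeR FDR 0.00119) and bag-1 (0.52, edgeR FDR 0.0387), and 2 fell.

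Of 3 genes for HSF-1 regulators, hsb-1, the HSF-1 binding protein, was lower at 0 h than at -2 h (log2 fold change -0.56, edgeR FDR 0.00286), though not without scaling factors or without replicate 5. It was lower again at 192 h than at 24 h (-0.51, edgeR FDR 0.00556). ddl-1 and ddl-2 passed in none of the 5 comparisons. Of 6 prefoldin subunit genes, 2 rose from 24 to 192 h, pfd-5 (0.71, edgeR FDR 2.14e-05) and pfd-6 (0.47, edgeR FDR 0.00024). None fell, where 19.4% of all tested genes were higher and 20.3% lower. From 192 to 288 h 3 fell, pfd-2 (-0.51, edgeR FDR 0.0112) and pfd-6 (-0.48, edgeR FDR 0.000372) most, but none without scaling factors.

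In other compartments, 5 of 6 Hsp70, Hsp90 and Hsp60 genes rose from 24 to 192 h. hsp-4, the inducible BiP of the endoplasmic reticulum, rose most (log2 fold change 2.14, edgeR FDR 1.03e-06), followed by enpl-1, its Hsp90 (1.39, edgeR FDR 2.84e-15). From 192 to 288 h 3 rose, hsp-4 (1.85, edgeR FDR 1.62e-05) and hsp-3 (0.84, edgeR FDR 1.35e-08) most, and mitochondrial hsp-75 fell (-0.26, edgeR FDR 0.0331). hsp-60, the mitochondrial chaperonin, fell from 205 to 34.0 mean CPM between 0 and 12 h (-2.59, edgeR FDR 7.78e-19).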

How the data were processed

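Poly(A) RNA of whole animals was sequenced as single-end reads on an Illumina HiSeq instrument (NEBNext Ultra kit, without strand marking). The authors mapped reads with bowtie to genome release WS210, reporting 1 location and dropping reads with more than 2, and deposited raw counts per gene from HTSeq. Versions and strand mode are not given in the sources used here. Per library, summary entries without a gene held 21.1 to 29.7% of reads and were left out. Groups came from the labelled time points.

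Genes over 1 CPM in at least 4 libraries were fitted in edgeR 4.0.16 (R 4.3.3) with TMM scaling and all 48 libraries in 1 fit (common biological coefficient of variation 0.188). Change over all times used the study's likelihood ratio test, and 5 pairs of time points the 2-sided quasi-likelihood F test, Benjamini-Hochberg adjusted within each comparison at 0.05. Each SE was derived from the fold change and its F statistic. Profile likeness added 0.5 to CPM, or 5 as an alternative. Replicate numbers pair libraries, because most replicates were single cultures per the methods: deviations of same-numbered libraries had a median r of 0.206, and 43 of 48 libraries matched their own number best. The scripts were tested on simulated data for 12 h against 0 h. There the quasi-likelihood test recovered 60 of 100 log2 changes of 1 and 86 of 100 of 2, with 7 false calls. A gene that did not pass may therefore still have changed.

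The members and lists were chosen with earlier results of these data known. Named besides the members are at most the 2 largest called rises and falls per list and comparison, and the 3 genes most like hsf-1, hsp-1, hsp-90 and F44E5.4. One list symbol was replaced by hsp-75 and one dropped after matching names to the annotation, not by value. Names and exon lengths came from Ensembl and RefSeq on WBcel235, so no coordinates are given. Alternatives were other scalings, filters, DESeq2 1.42.0, a replicate block, left-out replicates or libraries and, added after the data were seen, F44E5.4 and F44E5.5 summed.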

Additional observations from a re-analysis of the deposited data

Results flagged for a closer look

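Within groups of 4 libraries, 12 of 108 gene and time point combinations had 1 library far from the other 3. For independent values with a normal spread, chance would give about 1 in 20. The genes share the same libraries and cultures, so the combinations are not independent, and F44E5.4 and F44E5.5 also share reads.

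Replicate 1 was the high library in 8 of them. It held 960.4 CPM of hsp-90 at 4 h, against 766 to 780.5 CPM in the others. For hsp-70 it held 5.915 CPM at 2 h (others 1.167 to 1.539), 6.865 CPM at 6 h (others 1.5 to 2.16) and 11.6 CPM at 12 h (others 2.853 to 3.673). For F44E5.4 it held 157.7 CPM at 24 h (others 40.88 to 49.11) and 114.4 CPM at 48 h (others 51.86 to 59.1), and for F44E5.5 154.0 CPM at 24 h (others 40.05 to 54.54) and 113.7 CPM at 48 h (others 52.89 to 62.05).

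Replicate 6 was high at -2 h for F44E5.4, with 33.65 CPM (others 19.68 to 21.55), and F44E5.5, with 27.37 CPM (others 21.06 to 21.47). This is the library with 49.5% ribosomal RNA, and its part in these values was not tested. Replicate 5 was low for F44E5.5 at 192 h, with 145.4 CPM (others 304.2 to 328.3). Replicate 1 was low for hsp-110 at -2 h, with 94.2 CPM (others 104.1 to 105.4).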

How the results depend on the processing

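Of 744 alternative values for the 9 genes, 693 kept their direction and their side of the threshold, 3 lost a call, 18 gained one and 30 changed sign, and none of the 30 passed the test. Low depth bears on hsp-70, which was at 1.17 CPM in its lowest library, at 2 h.

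At 0 h against -2 h the sign changed for hsp-90 (-0.0251 with DESeq2 size factors and with DESeq2, -0.00329 with the replicate block, -0.00826 without the 2 libraries richest in ribosomal RNA, -0.0118 in a fit of the 8 libraries, -0.0808 to 0.0471 leaving out 1 replicate, lowest without replicate 1) and for hsp-70 (-0.393 without replicate 1, up to 0.61 without another). It changed for F44E5.4 (-0.858 to 0.0791 leaving out 1 replicate, highest without replicate 6) and F44E5.5 (0.0802 without scaling factors, 0.0888 and 0.103 without replicate 6 or 8, down to -0.697 without another). For hsp-110 the values were -0.0243 (DESeq2 size factors), -0.0247 (DESeq2), -0.0096 (replicate block), -0.0108 (8 libraries), -0.0961 and -0.000385 (without replicate 1 or 5, up to 0.0936 without another). For sti-1 they were -0.0237 (DESeq2 size factors and DESeq2), -0.0113 (8 libraries), -0.00772 and -0.029 (without replicate 5 or 8, up to 0.0581 without another). Elsewhere the sign changed for hsp-110 at 12 h against 0 h (-0.0494 without replicate 1, up to 0.432 without another) and, at 24 h against 12 h, for hsf-1 (-0.147) and sti-1 (-0.0816) without scaling factors and hsp-70 (0.212 without replicate 1, down to -0.388 without another). At 192 h against 24 h dnj-13 gave 0.0086 (DESeq2 size factors), 0.009 (DESeq2), 0.0945 and 0.0666 (without replicate 5 or 6, down to -0.132 without another). The cause was not tested.

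At 0 h against -2 h, 1 of the 9 genes in place of 0 passed with DESeq2 size factors, with DESeq2 and with a mean CPM of at least 10. At 24 h against 12 h, 1 in place of 2 passed without scaling factors. The replicate block added hsp-1 and hsp-70 at 12 h against 0 h and dnj-13 at 24 h against 12 h, raised the calls over all genes at 24 h against 12 h from 1623 to 2472, and changed no other call of the 9. Leaving out 1 replicate gave 962 to 1186 there. Leaving out the 2 libraries richest in ribosomal RNA gave 2578 genes in place of 4051 at 0 h against -2 h, and the filter at a mean of 10 CPM tested 8494 genes and called 8209 over all times. Without scaling factors the median of all genes moved by 0.14, -0.12, -0.22, -0.09 and 0.21 in the 5 comparisons, and the share of higher calls was 66.9% in place of 48.4%, 38.2% in place of 48.8%, 7.12% in place of 44.5% and 61.3% in place of 29.8% in the first 3 and the last of them. Upper-quartile scaling moved the last median by 0.13 and that share to 49.5%. Summing F44E5.4 and F44E5.5 gave 1 call fewer wherever both had been called.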
